A study of Mus musculus with 7 samples.

Results

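The genes described here encode the subunits of the mitochondrial respiratory chain that come from nuclear genes. They were chosen by name alone, as the rows whose symbol is that of a complex I, II, III or IV subunit or of an ATP synthase (complex V) subunit, leaving out 7 rows named as pseudogenes, 1 repeated row and the complex I assembly factors. This gave 90 genes of the 46333 in the count tables, of which 40 belong to complex I, 4 to complex II, 8 to complex III, 21 to complex IV and 17 to complex V. Ndufa4 and Ndufa4l2, named as complex I genes, were placed in complex IV, where the Ndufa4 protein is found. Ndufab1, Cyc1, Cycs and Atpif1, whose symbols fall outside the name rule, are given apart from the 90 genes.

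RNA sequencing was performed on neurons from the brains of adult female mice in which Il4ra, the gene of the interleukin-4 receptor alpha chain, is flanked by recombination sites on both alleles (il4ra fl/fl). Libraries of 3 il4ra fl/fl mice carrying Syn cre (cre+) were compared with those of 4 il4ra fl/fl mice without it (cre-), to ask how loss of this receptor from neurons relates to their transcripts. Syn cre is driven by the synapsin 1 promoter, so recombination is directed to neurons and the remaining cells of the brain keep the gene. Neurons were obtained by dissociating the brain and removing non-neuronal cells with antibody-coupled magnetic beads. The study counts mice, all littermates, as its replicates.

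The respiratory chain passes electrons from NADH (complex I) and succinate (complex II) through complex III to oxygen at complex IV, and the proton gradient this builds drives ATP synthesis by complex V. Its complexes, apart from complex II, join subunits encoded in the nucleus with subunits encoded by mitochondrial DNA. Neurons depend on this chain for most of the ATP that maintains their membrane potential and synapses.

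The 7 libraries held 68213223 to 94376841 counts. The 90 genes took 0.781%, 0.815% and 0.722% of the cre+ counts and 0.827%, 0.643%, 0.732% and 0.721% of the cre- counts, in the order of the replicates. Levels are given as CPM, the count of a gene divided by its library's total after TMM scaling. Neuronal markers were present in all libraries, none of the 15 at 0, and their summed level was 1506 to 2826 CPM in the cre+ and 2747 to 4495 CPM in the cre- libraries. Markers of vessel cells were also present, at 13971 to 20354 against 9225 to 12839 CPM summed over 12 endothelial genes and 608 to 859 against 402 to 570 CPM over 11 mural genes. Transcripts of other cell types were thus in the libraries, and in such bulk samples fewer cells of a type and less RNA per cell cannot be told apart. A count over the whole Il4ra gene does not check the genotype, since the deletion removes a few of its exons.

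Of the 90 genes, 83 had enough counts for the test of genotype (36 of complex I, 4 of complex II, 8 of complex III, 18 of complex IV and 17 of complex V). The 7 others were isoforms and close copies at or near 0. Ndufb4b had 65 counts over all libraries, Cox6c2 34, Cox7b2 24, Ndufs6b 14 and Ndufb4c 7, while Cox8c, known from testis, and Ndufa11b had 0. The 89 genes with a mapped position lie on 18 autosomes and the X chromosome, with 2 to 9 genes on each, so the set is not a genomic cluster. Chromosome 7 holds 9 of them, among them Cox6a2, Cox6b1, Cox6b2, Cox7a1 and Cox8b, and the X chromosome holds 3 (Cox7b, Ndufa1 and Ndufb11). Their reference transcripts were short, with a median of 990 bases over the 83 tested genes against 2982 bases over all genes tested.

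Levels differed widely between subunits once divided by transcript length. Atp5b, the catalytic beta subunit of ATP synthase, stood highest at 433.6 CPM per kb of reference transcript (mean of 7 libraries), followed by Cox4i1 at 369, Cox6a1 at 361, Cox8a at 282 and Atp5a1, the alpha subunit, at 251 CPM per kb. The same 5 genes led with the median length of each gene's coding transcripts, in another order, with Cox6a1 (424) before Cox4i1 (369). The median level per length was 80.3 CPM per kb in complex IV, 78.2 in complex V, 53.9 in complex III, 49.0 in complex I and 38.3 in complex II, against 5.40 over all genes tested. Ndufb10 stood highest in complex I, at 109 CPM per kb. Complex IV had the widest range, because tissue-restricted isoforms stood far below their partners, down to 0.527 CPM per kb for Cox6a2. These values rest on the reference transcript: with coding transcript lengths Cox7a2 moved from 69.6 to 11 CPM per kb, and Ndufb2, the lowest of complex I on the reference transcript, from 5.88 to 54.2.

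**Figure D1:**
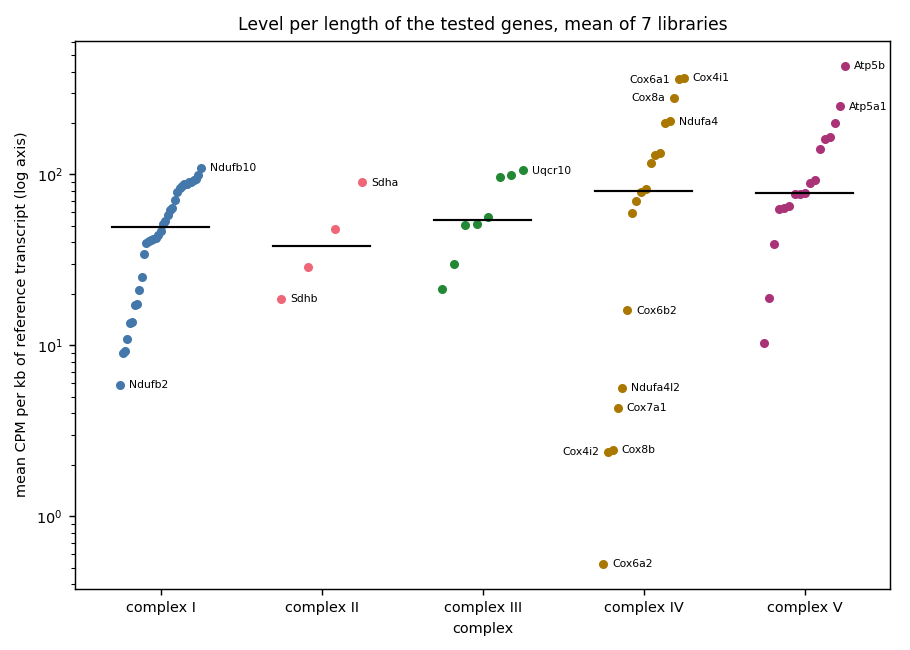
Level of 82 tested genes per length (vertical axis, mean CPM of 7 libraries per kb of reference transcript, log axis), in columns by complex (horizontal axis), with each point a gene, points sorted within a column and the bar the median of all tested genes of the complex. Atp5b (433.6) and Cox4i1 (369) stand at the top, and the isoforms Cox4i2, Cox7a1, Cox8b, Ndufa4l2 and Cox6a2 lie far below the other complex IV genes.

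Promoters of these genes held known binding motifs more often than promoters at large, a difference that was counted and not tested. Of the 90 genes, 70 matched a RefSeq promoter (250 bases before to 50 after the start), some with more than 1 start, giving 75 member promoters among 32851. The motif of NRF1 (the letters GCGCA and GCGC with any base N between), a factor known for binding promoters of respiratory genes, was in 24.0% of the member promoters against 4.60% of all. The ETS motif CCGGAAG, bound by GABPA and related factors, was in 22.7% against 8.86%, and the YY1 motif AAGATGGCG in 9.33% against 1.40%. At least 1 of the 3 was in 48.0% of the member promoters and 13.6% of all. Both strands were searched. The promoters at large were not matched to the members in level or base content, so the difference need not be particular to respiratory genes. The ETS and YY1 motifs can share letters, but their matches overlapped in 0 promoters, and a match is a description of sequence, since no binding was measured. The windows below are 150 bases that end 0 to 37 bases before the start of 6 genes, which represent the 5 complexes and show where in a promoter the letters lie. Sequences are from RefSeq (table build GRCm38.p6), placed by exact match on GRCm39 and written 5′ to 3′ on the strand of the gene, with the NRF1 or ETS letters in capitals.
Ndufa11 (chr17:57024612-57024761, plus strand): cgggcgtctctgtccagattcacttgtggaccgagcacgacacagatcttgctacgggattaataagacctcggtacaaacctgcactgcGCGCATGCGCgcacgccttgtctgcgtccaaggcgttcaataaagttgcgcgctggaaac
Sdha (chr13:74498400-74498549, minus strand): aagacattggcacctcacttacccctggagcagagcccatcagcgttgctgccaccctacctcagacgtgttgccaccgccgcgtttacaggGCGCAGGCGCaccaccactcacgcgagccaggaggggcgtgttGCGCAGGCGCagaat
Sdhd (chr9:50515150-50515299, minus strand): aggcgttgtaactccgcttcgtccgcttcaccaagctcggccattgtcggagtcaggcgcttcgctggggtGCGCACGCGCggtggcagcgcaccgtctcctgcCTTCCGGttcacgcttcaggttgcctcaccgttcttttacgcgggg
Uqcr11 (chr10:80242665-80242814, minus strand): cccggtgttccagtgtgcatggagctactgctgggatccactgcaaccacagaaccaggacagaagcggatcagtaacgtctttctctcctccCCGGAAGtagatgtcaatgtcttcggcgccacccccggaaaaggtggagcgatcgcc
Cox6a1 (chr5:115487041-115487190, minus strand): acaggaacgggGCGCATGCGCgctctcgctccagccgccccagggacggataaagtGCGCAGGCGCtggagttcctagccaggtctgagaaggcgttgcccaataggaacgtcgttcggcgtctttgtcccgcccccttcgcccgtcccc
Atp5h (chr11:115310789-115310938, minus strand): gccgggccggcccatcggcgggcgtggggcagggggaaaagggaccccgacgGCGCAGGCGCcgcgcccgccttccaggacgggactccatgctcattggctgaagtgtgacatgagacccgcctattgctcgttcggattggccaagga
Sdha and Cox6a1 each hold 2 NRF1 matches in this window, Ndufa11 and Atp5h 1, Sdhd an NRF1 match and an ETS match in reverse, and Uqcr11 an ETS match. Between genotypes, the comparison described next, the median log2 fold change was 0.17 for 17 tested genes with NRF1 letters and 0.19 for 51 without, 0.21 and 0.16 for ETS (17 and 51 genes), and 0.19 in both classes for YY1 (7 and 61 genes).

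Most of the 83 genes had a slightly higher mean in the cre+ libraries. Their log2 fold change (cre+ against cre-) was above 0 in 81 of 83, where 46% of all 21542 genes tested were above 0, and their median was 0.20 against -0.04 over all genes. The median ratio of means was 1.15, and 56 of the 83 lay within 1.2-fold. No member passed an adjusted p of 0.05 in edgeR's quasi-likelihood test with Benjamini-Hochberg adjustment, which called 0% of all genes, and the lowest adjusted p among members was 0.166 (Uqcr10). At an unadjusted p under 0.05, 9 members were higher (10.8% of the 83, against 10.2% of all genes) and 0 were lower (against 9.75%). DESeq2, the test used by the study, also called 0 members, where it called 6.7% of 16345 genes higher and 5.48% lower. Its lowest adjusted p among members was 0.0697 (Cox4i2). limma-voom called 0 members as well, with 10 higher at an unadjusted p under 0.05 (against 10.3% of all genes).

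Markers of cell types moved between the genotypes as well. All 15 neuronal markers had a log2 fold change below 0, with a median of -0.70. DESeq2 called 6 of them lower (against 5.48% of all genes). The medians were above 0 for endothelial (0.66), mural (0.79), astrocyte (0.85), meningeal fibroblast (1.05), ependymal (1.04), choroid plexus (0.82), oligodendrocyte (0.50) and microglia (0.45) markers, and below 0 for markers of parvalbumin interneurons (-0.64) and red blood cells (-0.38). DESeq2 called 10 of 12 endothelial, 6 of 11 mural, 5 of 10 astrocyte and 4 of 7 meningeal fibroblast markers higher (against 6.7% of all genes). It also called 3 of 9 oligodendrocyte and 1 of 6 ependymal markers higher, and 1 of 7 parvalbumin interneuron markers lower. No choroid plexus, microglia or red blood cell marker was called. The part of these markers in the members' values was not tested.

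The size of the members' difference depended on the cre- libraries, which were spread more widely than the cre+ libraries. Relative to the cre- mean, the median over members of the log2 level was 0.23, 0.25 and 0.09 in cre+ replicates 1 to 3. It was 0.27, -0.24, -0.004 and -0.02 in cre- replicates 1 to 4. Replicate 1 of cre- was the highest cre- library for 80 of the 83 genes, against 30.0% of all genes, and it stood above the cre+ mean for 57 of them (68.7%, against 49.1% of all genes). Replicate 2 of cre- was the lowest of the 7 libraries for 73 genes, against 17.1% of all genes. Without cre- replicate 1 the median log2 fold change of the members was 0.29, all 83 were above 0 and 38 were higher at an unadjusted p under 0.05 in edgeR (against 10.3% of all genes). Without cre- replicate 2 the median was 0.11, 71 were above 0 and 3 were higher at such a p (against 7.46% of all genes).

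Other gene groups shared part of this spread. Cre- replicate 1 was also the highest cre- library in the mean log2 offset of neuronal markers (0.40) and of red blood cell genes (1.42), and cre- replicate 2 was also the lowest library in that of the cytosolic ribosomal protein genes (-0.26). In assembly factors the mean offsets of cre- replicates 1 and 2 were 0.17 and -0.17, the highest and lowest of the 7 libraries. They were 0.19 and -0.13 in tricarboxylic acid cycle genes, 0.12 and -0.10 in mitochondrial ribosomal protein genes and 0.27 and -0.16 in glycolysis genes. Regulators of mitochondrial genes went the other way (-0.09 and 0.05), and in the mitochondrially encoded subunits both were below 0 (-0.11 and -0.05). Cre- replicate 1 had 89951002 counts and cre- replicate 2 had 78455035, both within the range of the others. The part of these in the members' spread was not tested. All cre+ libraries stood above cre- replicates 2, 3 and 4 for 47 of the 83 genes (56.6%, against 12.7% of all genes tested). This count was made after the position of cre- replicate 1 had been seen. With all 4 cre- libraries, 7 members did not overlap between genotypes (8.43%, against 8.94% of all genes), all higher in cre+: Ndufs8, Ndufb7, Ndufa6, Ndufa8, Cox7a2l, Cox4i2 and Cox7a1. No member was without overlap on the lower side, against 9.72% of all genes.

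**Figure D2:**
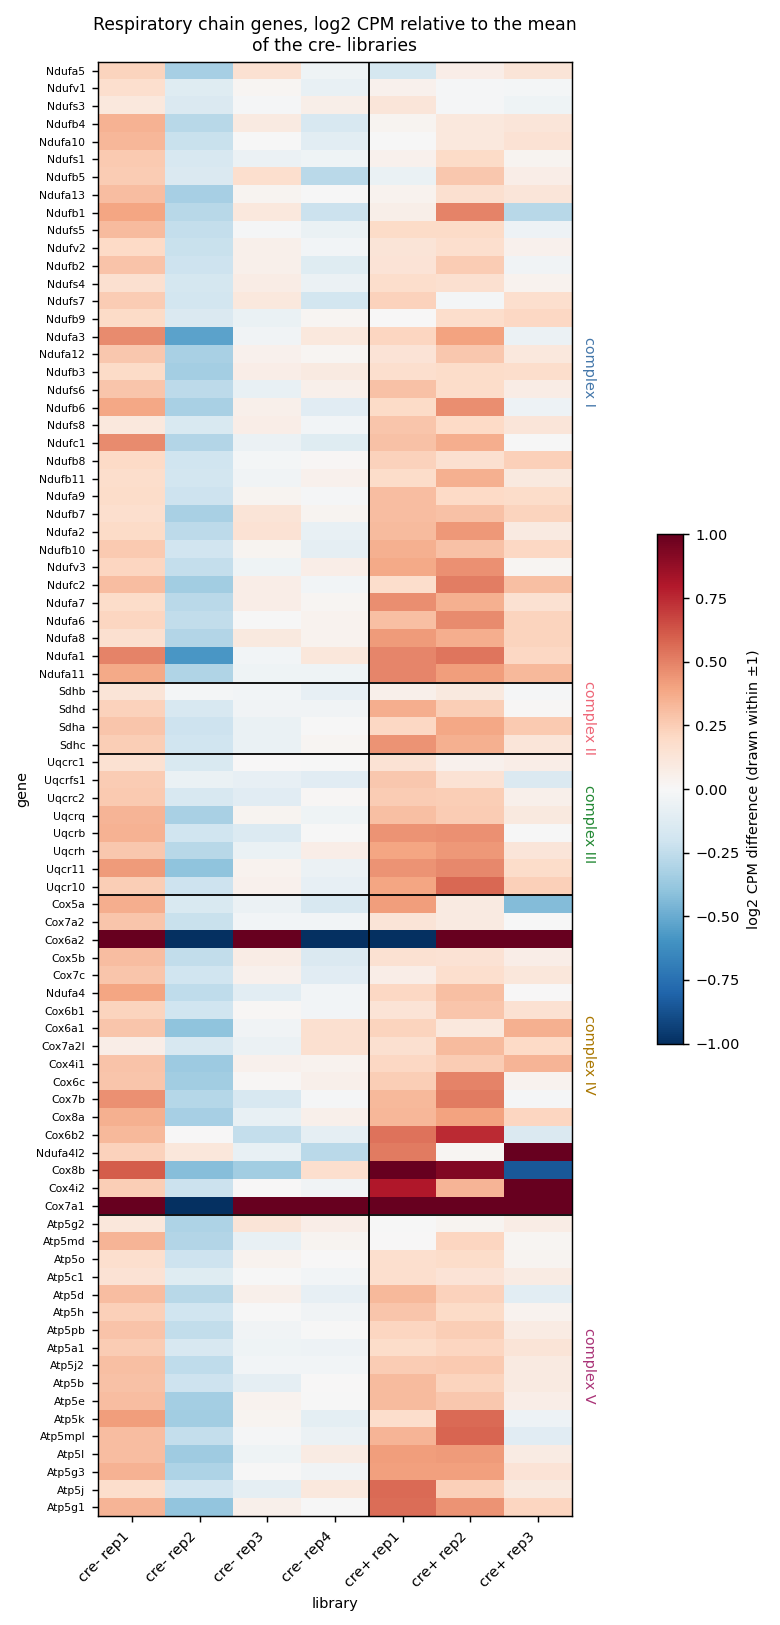
Level of 82 tested genes (rows, grouped by complex and sorted by fold change) in each library (columns), as log2 CPM minus the mean of the 4 cre- libraries, with colours drawn within ±1. The column of cre- replicate 1 is red and that of cre- replicate 2 mostly blue in each complex, and the 3 cre+ columns are mostly red.

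DESeq2 calls among the members appeared only when a library was left out, an alternative added after the data were seen. Without cre- replicate 1 it called 8 members higher (9.64%, against 5.84% of all genes): Ndufa11, Ndufb10, Sdha, Uqcr10, Uqcr11, Cox8a, Atp5g1 and Atp5g3. Their adjusted p ranged from 0.00579 for Ndufa11 to 0.0429 for Atp5g3. It called Cox4i2 alone without cre+ replicate 2 (against 2.8% of all genes), Cox8b alone without cre+ replicate 3 (against 4.12%) and Cox7a1 alone without cre- replicate 2 (against 2.71%). It called no member without cre+ replicate 1 (against 2.52% of all genes), cre- replicate 3 (against 3.4%) or cre- replicate 4 (against 7.48%).

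Complex I oxidises NADH and is built from core subunits, which carry the flavin and iron-sulfur clusters, and many accessory subunits around them. Summed over its genes, the cre+ libraries held 2254, 2302 and 2115 CPM, and cre- replicates 1 to 4 held 2331, 1692, 2005 and 1928 CPM. The 3 cre+ values lay above 3 of the cre- values and below that of cre- replicate 1. Of the 36 tested genes 34 had a log2 fold change above 0, with a median of 0.16. The 7 nuclear core genes, among them Ndufs1, Ndufs8 and Ndufv1, had a median of 0.08 and the 29 tested accessory genes one of 0.19.

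Ndufa8, an accessory subunit of the intermembrane-space side, was at 91.1, 87.5 and 79.3 CPM in cre+ and at 76, 55.5, 72.6 and 69.7 CPM in cre-. The lowest cre+ library lay above the highest cre- library. Its log2 fold change of 0.33 ± 0.12 (SE) had an edgeR adjusted p of 0.193. The exact two-sided permutation test gave p = 0.0571 for Ndufa8 (0.241 after adjustment over the 32 tested genes named by rule). That list holds genes chosen for a small edgeR p in the same libraries, Ndufa8 among them, so neither value is independent. Ndufa6, an accessory subunit of the LYR family, was at 55.5, 62.4 and 52.5 CPM against 52.2, 38.1, 44.9 and 46.3 CPM. Here the cre+ replicate 3 and cre- replicate 1 values nearly met, and the log2 fold change of 0.32 ± 0.12 gave 0.2 as edgeR adjusted p.

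Ndufa11, an accessory subunit of the membrane arm, had the highest log2 fold change of the 36 tested genes of complex I. It was at 62.0, 59.2 and 55.5 CPM in cre+ and at 57.6, 36.0, 43.1 and 43.0 CPM in cre-. The log2 fold change, 0.39 ± 0.15, had an edgeR adjusted p of 0.204, and the groups overlapped through cre- replicate 1. Ndufa5, an accessory subunit, had a log2 fold change close to 0. It was at 31.4, 37.0 and 38.7 CPM against 41.4, 28.1, 39.3 and 34.3 CPM (-0.002 ± 0.15). The cre+ range lay within the cre- range, and the exact permutation p was 0.943. Some core genes were also close to 0, with Ndufv1, which holds the flavin, at 0.002 ± 0.10 and Ndufs3 at 0.02 ± 0.10. The core gene with the largest value was Ndufs8, an iron-sulfur subunit, at 0.20 ± 0.10, with 46.6 to 52 CPM in cre+ and 38.6 to 46.2 CPM in cre-.

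Complex II, succinate dehydrogenase, links the tricarboxylic acid cycle to the chain and is wholly encoded in the nucleus. Sdha, the flavoprotein that oxidises succinate, was at 290, 328 and 301 CPM in cre+ and at 304, 218, 240 and 250 CPM in cre-. The cre+ libraries lay above cre- replicates 2 to 4, and cre- replicate 1 lay among them. Its log2 fold change was 0.28 ± 0.13 (adjusted p = 0.278 in edgeR). Sdhc and Sdhd anchor the enzyme in the inner membrane. Sdhc was at 114, 107 and 90.6 against 98.6, 72.4, 79.6 and 84.6 CPM, a log2 fold change of 0.31 ± 0.13 (adjusted p = 0.23 in edgeR). Sdhd was at 72.2, 66.4 and 56.6 against 65.6, 50.2, 54.8 and 54.6 CPM, a log2 fold change of 0.21 ± 0.13. Sdhb, the iron-sulfur subunit, varied least, at 77.2, 80.0 and 74.1 against 81.7, 73.5, 73.0 and 70.4 CPM, with a log2 fold change of 0.05 ± 0.09. Summed over the 4 genes, levels were 522 to 581 CPM in cre+ and 414 to 550 CPM in cre-.

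Complex III moves electrons from ubiquinol to cytochrome c. All of its 8 genes had a log2 fold change above 0, with a median of 0.25 and a range from 0.08 (Uqcrc1) to 0.40 (Uqcr10). Uqcr10, a small subunit, was at 54.3, 61.7 and 48.8 CPM in cre+ and at 49.2, 35.9, 42.7 and 39.1 CPM in cre-. The groups overlapped by a narrow margin, cre+ replicate 3 lying just under cre- replicate 1, and the fold change of 0.40 ± 0.13 had the lowest adjusted p of all members in edgeR (0.166). The small subunit Uqcr11 was at 70.5, 72.0 and 58.6 against 69.3, 39.0, 52.9 and 49.4 CPM (0.35 ± 0.18). Uqcrh, the hinge protein beside cytochrome c1, was at 84.9, 87.2 and 70.2 against 77.8, 53.1, 61.7 and 67.5 CPM (0.31 ± 0.14). Of the larger subunits, the core protein Uqcrc1 had 0.08 ± 0.10, the core protein Uqcrc2 0.18 ± 0.12 and the Rieske iron-sulfur protein Uqcrfs1 0.09 ± 0.13. The summed level was 657 to 767 CPM in cre+ and 544 to 752 CPM in cre-.

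**Figure D3:**
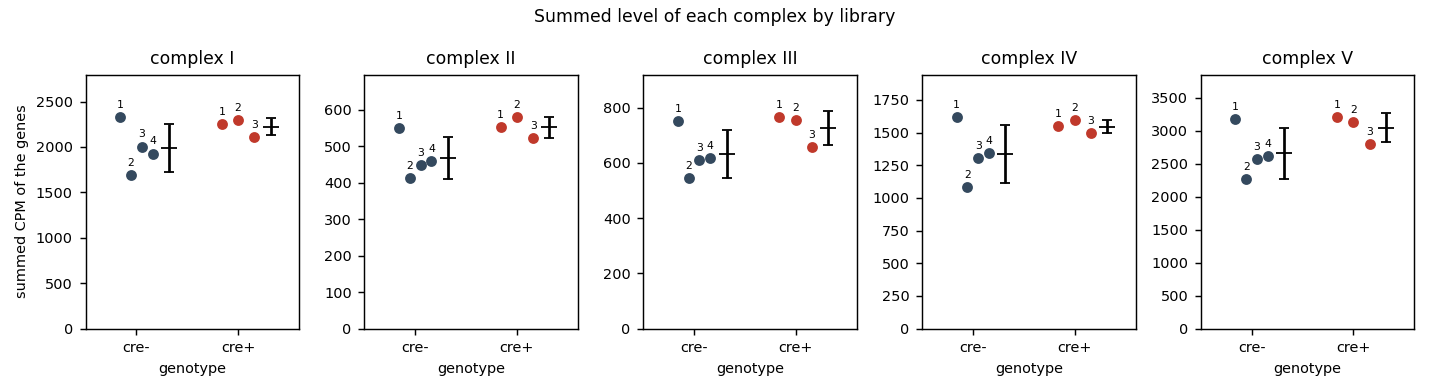
Summed CPM of the genes of each complex (vertical axis, from 0) by genotype (horizontal axis), with each point a library numbered by replicate, and the bar and whiskers the mean ± SD of 4 cre- and 3 cre+ libraries. In complex I the cre- libraries run from 1692 to 2331 CPM and the cre+ libraries from 2115 to 2302 CPM, and in every panel cre- replicate 1 is the highest cre- library and replicate 2 the lowest.

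Complex IV, cytochrome c oxidase, reduces oxygen, and several of its nuclear subunits exist as a common and a tissue-restricted isoform. Its summed level was 1495 to 1595 CPM in cre+ and 1080 to 1620 CPM in cre-, and all 18 tested genes had a log2 fold change above 0 (median 0.23). Cox4i1, the common form of subunit 4, was at 306, 315 and 334 CPM in cre+ and at 322, 206, 272 and 270 CPM in cre- (0.25 ± 0.15, adjusted p = 0.385 in edgeR). Cre- replicate 1 lay within the cre+ range and the other cre- libraries below it. Of the other common subunits, Cox6a1 was at 222, 205 and 244 against 231, 144, 185 and 212 CPM (0.21 ± 0.16). Here the groups overlapped widely, while Cox6b1 had a log2 fold change of 0.18 ± 0.11, Cox7b 0.26 ± 0.19 and Cox8a 0.30 ± 0.15. Cox7a2 was at 60.3, 58.8 and 55.1 against 66.8, 47.3, 54.0 and 54.1 CPM, and its log2 fold change of 0.06 ± 0.12 was near 0. Cox7a2l, a paralogue of Cox7a2, was at 102, 114 and 105 CPM in cre+ and at 96.1, 82.0, 88.0 and 102 CPM in cre-. The groups did not overlap, though cre+ replicate 1 and cre- replicate 4 were equal to 3 digits, and the fold change was 0.22 ± 0.10 (adjusted p = 0.278 in edgeR, exact permutation p = 0.0571).

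Cox4i2, the form of subunit 4 known from lung and from low oxygen, had the smallest permutation p of the named genes. It was at 2.28, 1.65 and 3.46 CPM in cre+ and at 1.55, 1.12, 1.31 and 1.27 CPM in cre-. The lowest cre+ library, replicate 2, lay a little above the highest cre- library, replicate 1. The log2 fold change was 0.91 ± 0.34 (adjusted p = 0.194 in edgeR and 0.0697 in DESeq2), and the exact permutation p was 0.0286, the smallest that 3 against 4 libraries can give (0.241 after adjustment). Its share of the Cox4i1 and Cox4i2 level per length was 0.765%, 0.540% and 1.06% in cre+ and 0.495%, 0.557%, 0.493% and 0.482% in cre-. The shares overlapped, since cre+ replicate 2 lay below cre- replicate 2. Ndufa4l2, a form of the complex IV subunit Ndufa4 induced by low oxygen, was at 6.41, 4.53 and 9.21 CPM against 5.25, 4.84, 4.25 and 3.69 CPM. It overlapped between genotypes, with a log2 fold change of 0.57 ± 0.28, while Ndufa4 was at 118, 126 and 103 against 134, 85.7, 94.9 and 100.4 CPM (0.15 ± 0.16). Both Cox4i2 and Ndufa4l2 are transcripts known from pericytes of brain vessels. The 11 mural markers summed to 844, 608 and 859 CPM in cre+ and to 570, 455, 402 and 455 CPM in cre-, with 10 of 11 at a log2 fold change above 0 (median 0.79) and none at 0 in all libraries. Their part in the Cox4i2 and Ndufa4l2 values was not tested.

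**Figure D4:**
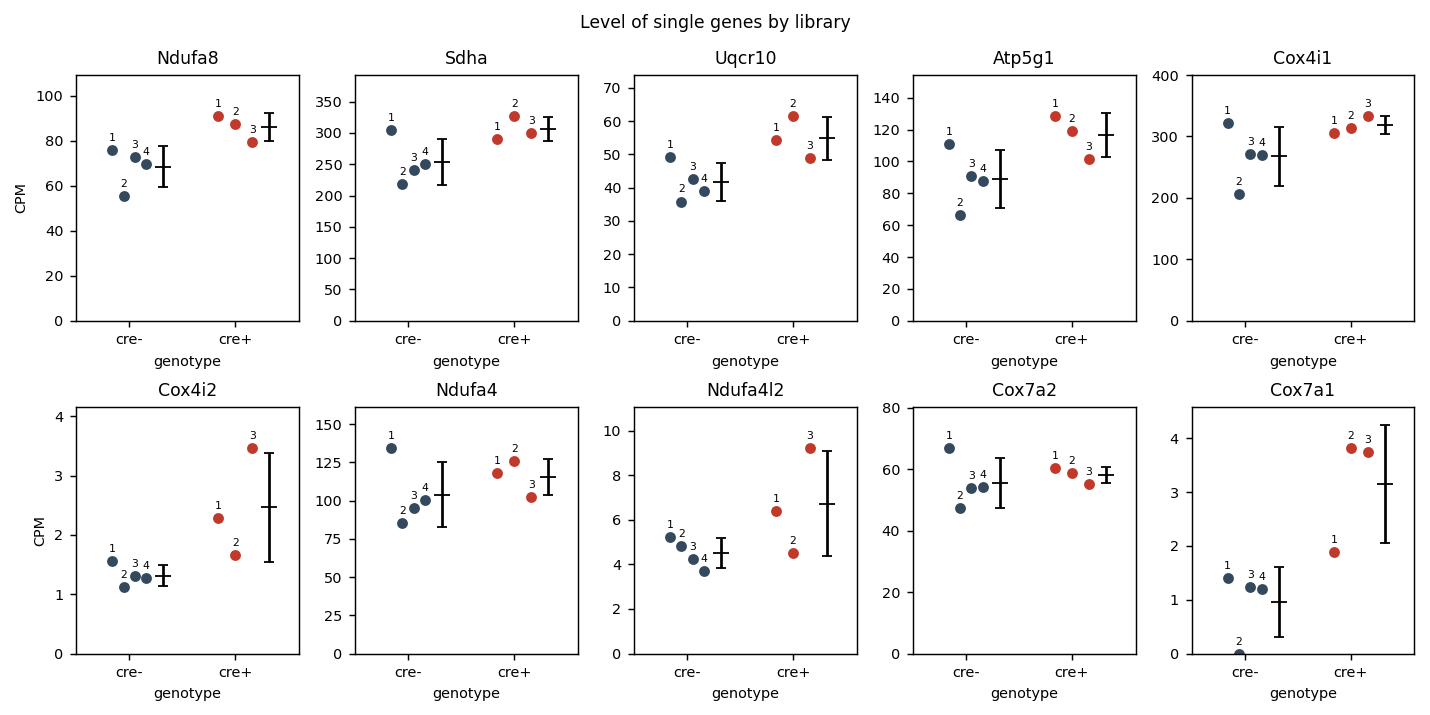
Level of 10 genes in CPM (vertical axes, from 0) by genotype (horizontal axis), with each point a library numbered by replicate, and the bar and whiskers the mean ± SD of 4 cre- and 3 cre+ libraries. Cox4i2, Cox7a1 and Ndufa8 do not overlap between genotypes, whereas in Sdha and Cox4i1 cre- replicate 1 lies within the cre+ range.

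The muscle isoforms were weakly expressed. Cox7a1 was at 1.89, 3.81 and 3.74 CPM in cre+ and at 1.41, 0, 1.24 and 1.21 CPM in cre-, without overlap. The log2 fold change, 1.71 ± 1.02, had an edgeR adjusted p of 0.392, and cre- replicate 2, at 0, widened the spread. Its share of the Cox7a1 and Cox7a2 level per length was 5.46%, 10.7% and 11.1% in cre+ and 3.74%, 0%, 4.06% and 3.95% in cre-. With coding transcript lengths the share over all libraries was 28.4% in place of 5.83%. Cox6a2 was under 1 CPM in every library and at 0 in cre+ replicate 1 and in cre- replicates 2 and 4. Cox8b was at 10.5, 7.57 and 2.19 CPM against 6.03, 2.95, 3.10 and 4.47 CPM, so that the cre+ group held both the highest and the lowest library. Cox6b2, known from testis, was at 12.1, 14.0 and 7.52 against 10.4, 8.34, 7.05 and 7.82 CPM (0.42 ± 0.24). It made up 8.39% to 13.5% of the Cox6b1 and Cox6b2 level per length. Striated muscle markers summed to 13.4 to 17.1 CPM in cre+ and 15.6 to 22.0 CPM in cre-, with 7 of 10 tested and a median log2 fold change of -0.36.

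Complex V couples the proton flow through its c ring to ATP synthesis in its F1 head. Its genes summed to 3212, 3132 and 2801 CPM in cre+ and to 3184, 2265, 2573 and 2615 CPM in cre-, the largest sum of the 5 complexes, and all 17 had a log2 fold change above 0 (median 0.19). Atp5b was at 967, 910 and 828 CPM in cre+ and at 953, 674, 732 and 781 CPM in cre-, a log2 fold change of 0.20 ± 0.15 (adjusted p = 0.487 in edgeR). Atp5a1 was at 666, 680 and 641 against 698, 524, 569 and 564 CPM (0.17 ± 0.13). In both of these genes cre- replicate 1 lay at or near the top and cre- replicate 2 lowest.

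The c ring is encoded by 3 genes whose mature proteins are identical. Atp5g1 was at 129, 119 and 102 CPM in cre+ and at 111, 66.7, 90.9 and 87.6 CPM in cre- (0.39 ± 0.17, adjusted p = 0.24 in edgeR). Atp5g3 was at 189, 189 and 156 against 181, 115, 142 and 139 CPM (0.31 ± 0.15). Atp5g2 differed little, at 47.2, 48.2 and 49.8 against 51.1, 38.2, 51.6 and 49.5 CPM (0.02 ± 0.12). Atp5g2 made up 25.3%, 25.6% and 30.1% of the Atp5g2 and Atp5g3 level per length in cre+ and 27.6%, 31.0%, 33.0% and 32.5% in cre-, with overlap. Of the stalk subunits, Atp5j (subunit F6) was at 189, 150 and 136 against 143, 111, 119 and 137 CPM (0.31 ± 0.14), with cre+ replicate 1 far above the others. Atp5h (subunit d) was at 125, 118 and 107 against 122, 90.2, 104 and 101 CPM (0.16 ± 0.12). The central stalk gene Atp5c1 had 0.13 ± 0.09 and Atp5o, which ties the stalk to the head, 0.12 ± 0.11. Atpif1, the inhibitor of the enzyme and outside the name rule, was at 72.2, 82.5 and 79.8 against 106.3, 66.0, 90.6 and 82.4 CPM (-0.14 ± 0.15).

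**Figure D5:**
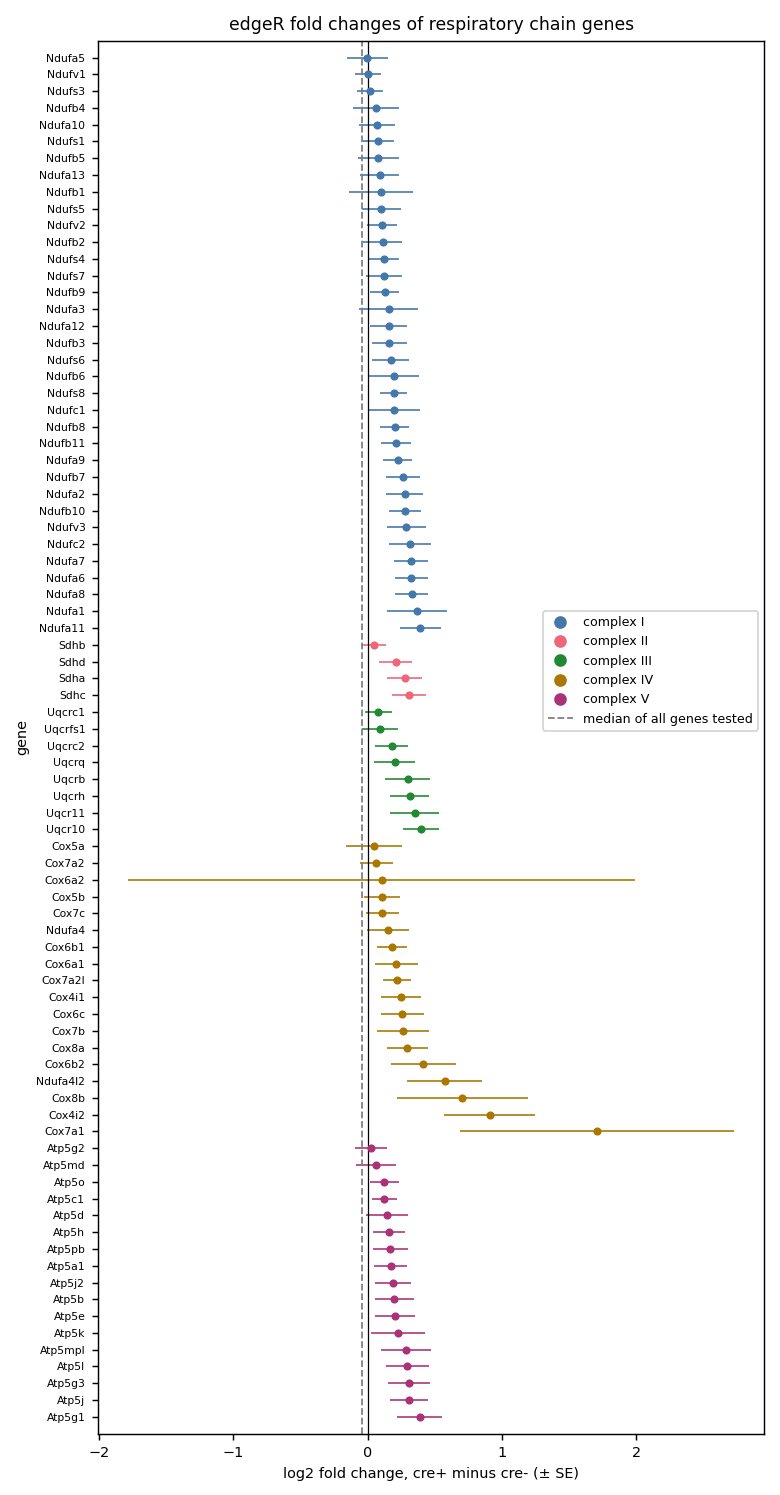
Log2 fold change, cre+ against cre-, from edgeR (horizontal axis, point ± SE) for 82 tested genes (vertical axis, grouped and coloured by complex), with a dashed line at the median of all genes tested (-0.04). Nearly all points lie to the right of 0, most between 0 and 0.40, and the bar of Cox6a2 is the longest.

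Standard errors were large beside these differences. The median SE was 0.14, and for 27 of the 83 genes the SE exceeded the log2 fold change. The 3 genes over 1.5-fold higher in mean CPM (Cox4i2, Cox7a1 and Cox8b) were all among the 8 with a mean under 20 CPM. Across the 83 genes the log2 fold change was lower for longer transcripts, with a Spearman correlation of -0.30 (-0.23 with coding transcript lengths). These points share their libraries, and the value is a description.

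The other genes of the pathway did not all share the direction. Of the 52 assembly factors, which build the complexes without staying in them, 51 were tested and 30 had a log2 fold change above 0, with a median of 0.04. Neither edgeR nor DESeq2 called any of them. Of the 4 genes outside the name rule 2 were above 0. Ndufab1 was at 38.9, 29.8 and 28.1 against 38.9, 27.8, 35.7 and 28.2 CPM (-0.02 ± 0.17). Cyc1, the cytochrome c1 of complex III, had 0.10 ± 0.11 and Cycs, cytochrome c, 0.03 ± 0.16. Among 12 regulators of mitochondrial genes 5 were above 0 and none was called by edgeR or DESeq2, with a median of -0.05. The 7 below 0 included Nrf1 at -0.08 ± 0.11, Polrmt at -0.21 ± 0.13 and the coactivator Ppargc1b at -0.56 ± 0.30. The 5 above 0 included Gabpa at 0.14 ± 0.11, Yy1 at 0.16 ± 0.11 and the coactivator Ppargc1a at 0.21 ± 0.18. Tfam, which packages mitochondrial DNA, was also above 0, at 0.19 ± 0.10.

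Of the 13 enzyme genes of the tricarboxylic acid cycle 12 were above 0, with a median of 0.09. DESeq2 called Suclg2, a subunit of succinyl-CoA ligase, which was at 44.4, 42.4 and 33.4 CPM in cre+ and at 22.7, 18.1, 20.7 and 27.9 CPM in cre- (0.84 ± 0.17, adjusted p = 0.00118 in DESeq2 and 0.0939 in edgeR). Of 16 glycolysis genes 13 were above 0 (median 0.16) and none was called. Mitochondrial ribosomal protein genes had 47 of 78 above 0 (median 0.06), and cytosolic ribosomal protein genes 83 of 87 (median 0.14). Of the 87 cytosolic genes, 26 did not overlap and were higher (29.9%, against 8.94% of all genes). None was lower without overlap (against 9.72% of all genes), and DESeq2 called 1 higher (against 6.7%). The subunits encoded by mitochondrial DNA were all above 0, 13 of 13, with a median of 0.70. DESeq2 called 7 of them higher (against 6.7% of all genes). ND3, ND4L, COX2, COX3, ATP6 and ATP8 stood at 1.24 to 32.1 CPM, against 12301 to 32573 CPM for COX1. These low genes count in the 13 and in the median but add little to the sum. Why their counts lay so far below those of COX1 was not tested, so their values need not be transcript levels. All 13 summed to 49226 to 80529 CPM in cre+ and 32350 to 42387 CPM in cre-, without overlap. The nuclear-encoded subunits summed to 7589 to 8367 and 5994 to 8438 CPM. In cre- replicate 1, the highest cre- library for 80 of the 83 nuclear genes, the mitochondrially encoded sum was the lowest of the 7.

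Scaling moved the direction of some members. With library totals in place of TMM factors the median of all genes shifted by -0.12 to -0.16, and 61 of the 83 members were above 0, with a median of 0.09. All 83 stayed above the median of all genes in that setting.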

How the data were processed

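Gene expression was measured by poly(A) RNA sequencing of paired-end reads in 3 cre+ and 4 cre- libraries. The authors used fastp for trimming, FastQC for quality control, STAR for alignment to GRCm39, SAMtools for filtering and StringTie for quantification. Versions, annotation release and strand setting are not given in the sources read here. Each library was deposited as raw counts per gene, and the authors also deposited a normalized signal, the same counts divided by 1 factor per library, which was not tested. Without strand, reads of a gene and its antisense partner cannot be told apart, and close copies (Ndufb4b, Ndufb4c, Ndufs6b, Cox6c2 and 7 pseudogene rows) may share reads.

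Repeated rows (49, with identical counts) were dropped. Genes were tested with edgeR 4.0.16 in R 4.3.3 (TMM, filterByExpr, glmQLFit, glmQLFTest, Benjamini-Hochberg over 21542 genes, threshold 0.05), with DESeq2 1.42.0 and limma-voom (limma 3.58.1) as alternatives. For named genes, log2 CPM (prior count 2) was compared by an exact two-sided permutation test whose smallest p is 0.0286. Part of these genes were chosen by a small edgeR p in the same libraries, so the adjusted permutation p is a description. Levels per length are CPM divided by the reference transcript length. Members, lists and alternatives were chosen with earlier results of these data known. Genes named by rule were the paralogous isoforms and c-ring genes, the 3 smallest p-values in each direction per complex, all of complex II, the 5 highest levels per length and any DESeq2 call; others were named as illustrations after their values were seen. The single values of 1 member are not reported here, though it is in all counts and medians.

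The sample titles do not say that replicate numbers pair the libraries, and no pairing was assumed. The correlation of same-numbered deviations was -0.03, -0.004 and 0.09, and not every library correlated best with its own number. With so few libraries these correlations cannot exclude a pairing. File headers carry codes that differ between genotypes and whose meaning is not given, so a batch that follows them cannot be told apart from genotype.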

Additional observations from a re-analysis of the deposited data

Results flagged for a closer look

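In 38 groups of 4 cre- libraries (32 named genes, the mean offset of each complex and that of all members), Dixon's ratio marked 2 in which a library stood far from the others, and chance marks about 1 in 20 groups. Cox7a1 had a ratio of 0.858, with cre- replicate 2 at 0 CPM and the others at 1.21 to 1.41 CPM. Atp5g2 had a ratio of 0.841, with cre- replicate 2 at 38.2 CPM and the others at 49.5 to 51.6 CPM. Both low values come from the library that was the lowest of the 7 for 73 of the 83 tested genes.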

How the results depend on the processing

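No member passed an adjusted p of 0.05 in edgeR under any scaling, filter, replicate block or left-out library. Of all genes, edgeR called 5 without cre+ replicate 1 and 0 in every other such setting. The 0 members called therefore cannot set them apart from other genes. DESeq2 called 0 with all libraries. Leaving out cre- replicate 1 gave 8, while leaving out cre- replicate 2, cre+ replicate 2 or cre+ replicate 3 gave 1 each. With a library left out, the edgeR median of the members ranged from 0.11 to 0.29, that of complex I from 0.07 to 0.25, complex II from 0.18 to 0.34, complex III from 0.18 to 0.37, complex IV from 0.15 to 0.34 and complex V from 0.11 to 0.31. With library totals these 6 medians were 0.09, 0.05, 0.13, 0.14, 0.12 and 0.08. With a replicate block, although the sample titles state no pairing by replicate number, the median was 0.20 and 77 of 83 were above 0. In that setting 0 members and 0 of all genes were called. Ndufa4 and Ndufa4l2 counted with complex I left its median at 0.16.

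Among the genes named by rule, directions turned in Cox6a2, Cox7a2, Atp5g2, Sdhb and Ndufa5. Cox6a2 was -0.19 with the replicate block and ranged from -1.15 to 1.15 with a library left out (-1.15 without cre+ replicate 3, and -0.31 when cre- replicate 2 or 4 was absent). With library totals Cox7a2 was -0.049, Atp5g2 -0.090 and Sdhb -0.070. With a library left out, Cox7a2 ranged from -0.0062 to 0.17 and Atp5g2 from -0.069 to 0.065 (both lowest without cre- replicate 2). Ndufa5 was 0.0061 with RLE factors, 2.2e-05 with no filter, 0.0050 in DESeq2 and 0.0037 in limma-voom, and it ranged from -0.10 to 0.078 with a library left out. It was above 0 when cre+ replicate 1 (0.077), cre- replicate 1 (0.078) or cre- replicate 3 (0.044) was absent. The other 448 values of named genes kept their direction and their side of the threshold. The cause of these changes was not tested.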
